A study of Xenopus tropicalis with 40 samples.

Results

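The phosphoinositide 3-kinase genes described here are 6 genes of the western clawed frog Xenopus tropicalis: pik3ca, pik3cb, pik3c2a, pik3r5, pik3r6 and pik3ip1. They were chosen by gene symbol from the deposited gene models, and all models carrying 1 of these symbols were taken. They are 6 of 7410 annotated genes that had at least 1 assembled, spliced transcript, and 6 of 8329 annotated genes with any model. The choice was made with their isoform numbers, exon numbers, spans and first exons already known, so these values are descriptions and none was tested. All 6 symbols were found in the RefSeq gene table of assembly UCB_Xtro_10.0.

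The series sequenced polyadenylated RNA of whole embryos of an outbred strain in 40 libraries. These ran from the 2-cell embryo to stages 44 and 45, over 23 stages in all. Clutch 1 gave 16 libraries and clutch 2 gave 24, and the labels name no treatment and no mutant allele. The transcripts form 1 catalogue for the whole series, which holds no value for a single library, so no stage, clutch, tissue or cell type can be given for any isoform, and no value below has a replicate or an SD. The depth of the libraries is unknown.

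Phosphoinositide 3-kinases add a phosphate to the inositol ring of membrane lipids. Class I enzymes pair a catalytic with a regulatory subunit, are switched on by receptor tyrosine kinases or G protein-coupled receptors, and recruit kinases such as Akt to the membrane. Class II enzymes work without such a partner and make phosphoinositides for endocytosis and vesicle traffic. In frog embryos, as in other vertebrates, signalling through this pathway lies downstream of growth factors such as insulin-like growth factor and fibroblast growth factor.

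The 6 genes ranged from 3 to 59 isoforms. The class II enzyme gene pik3c2a had 59 isoforms, here meaning assembled transcripts with at least 2 exons, and the class I catalytic gene pik3cb had 19. The regulatory subunit genes pik3r6 and pik3r5 had 12 and 6. The class I catalytic gene pik3ca and the inhibitor gene pik3ip1 had 3 each. Over all 7410 spliced annotated genes the median was 6 isoforms, with quartiles of 3 and 12, and over the 6 genes it was 9. All 6 of 6 had at least 2 isoforms, against 89% of all genes.

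**Figure D1:**
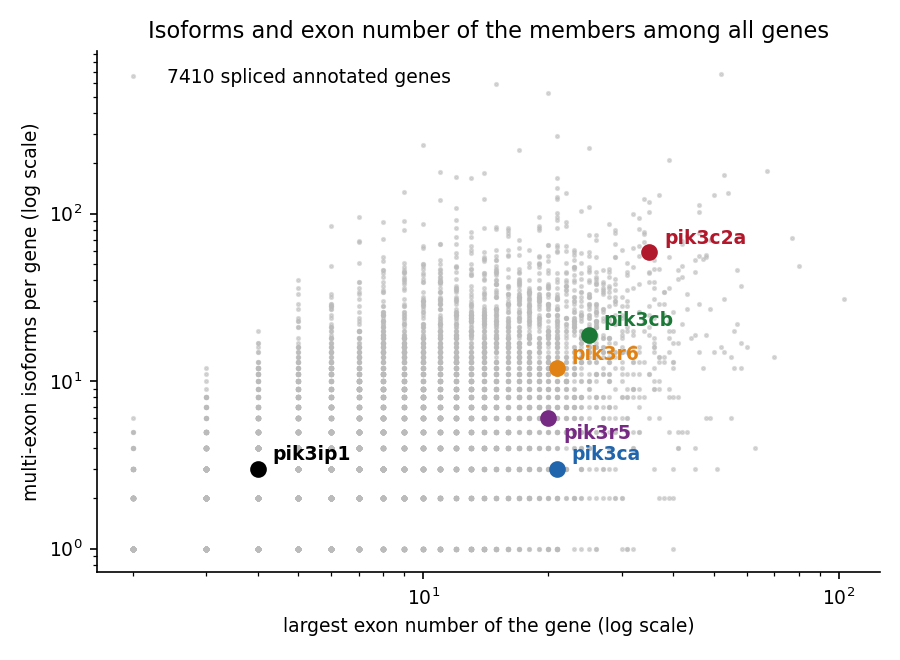
Number of multi-exon isoforms (vertical log axis) against the largest exon number of any transcript (horizontal log axis) for the spliced annotated genes, 1 grey point per gene, with the 6 phosphoinositide 3-kinase genes in colour and labelled. The point of pik3c2a lies at 35 exons and 59 isoforms, while pik3ca, with 21 exons, lies at 3 isoforms.

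These 102 transcripts lay on the strand of their gene, 1 locus per gene, and each had a splice junction chain of its own. None of the 6 genes was represented by a model taken over from the annotation alone. A further 6 transcripts listed under the symbols pik3c2a, pik3r5 and pik3r6 lay on the opposite strand and are described with the neighbouring genes.

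Members with like exon numbers differed in isoform number. Of the 6 genes, 5 had at least 20 exons, against 12.3% of all genes. The exception was pik3ip1, with 4. The cut of 20 equals the exon number of pik3r5, and the genes were chosen with exon numbers known. This contrast is therefore a description only. Among the 549 genes with 19 to 23 exons, the median isoform number was 12, with quartiles of 7 and 23. In that range pik3ca, with 21 exons and 3 isoforms, had more isoforms than 6.92% of genes and fewer than 89.4%, whereas pik3r6, with the same 21 exons and 12 isoforms, had more than 49.0%. The isoform number of pik3c2a exceeded that of 88.2% of the 119 genes with 31 to 39 exons, whose median was 16. That of pik3cb exceeded 56.7% of the 291 genes with 23 to 27 exons, and that of pik3r5 exceeded 21.1% of the 629 genes with 18 to 22 exons. The 3 isoforms of pik3ip1 equalled the median of the 1414 genes with 3 to 5 exons.

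The deposited tables give each transcript a score headed FPKM that never exceeds 1, called the relative weight here. How it was computed is not known, so it was not used as an abundance. Of all genes, 58.5% had at least 1 isoform of relative weight 1. Of the 6 members 2 did, pik3c2a with 5 such isoforms and pik3cb with 7. The highest relative weight was 0.5 in pik3ca and in pik3ip1, 0.75 in pik3r6 and 0.8 in pik3r5. In both genes that had isoforms of weight 1, these were mostly partial chains of exons, as described for each gene.

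The gene pik3ca encodes the alpha catalytic subunit of class I, which acts downstream of receptor tyrosine kinases. It lay on the plus strand of scaffold GL172639 from 7077165 to 7103307, a span of 26143 bases. All 3 isoforms began in the same first exon of 1294 bases, from 7077165 to 7078458. One isoform had exactly the annotated junction chain, with 21 exons, 6029 bases and a relative weight of 0.492. Another had 21 exons, 6030 bases and a relative weight of 0.125, and differed by an acceptor site 1 base away, at 7087584 in place of 7087585. The third stopped after 10 exons and 2924 bases, in a last exon of 8 bases from 7090869 to 7090876, with a relative weight of 0.5. The pik3ca gene had no skipped exon, while at least 1 skipped exon was found in 5 of the 6 members and in 70% of all genes. Of its 20 internal exons, counted by exact ends, 18 were present in every transcript that spanned them, and 20 of its 22 splice junctions were annotated.

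The gene pik3cb encodes the beta catalytic subunit of class I, which in mammals also responds to G protein-coupled receptors. It lay on the plus strand of scaffold GL172691 from 1318882 to 1414741. Its span of 95860 bases was the longest of the 6, and 8.04% of all genes spanned more. The isoform with the annotated junction chain had 25 exons, 6089 bases and a relative weight of 0.280. The 19 isoforms held 7 to 25 exons, with a median of 16.

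The isoforms of pik3cb were sorted into 3 kinds around a stretch of 2693 bases inside the gene. The ends of isoforms set this stretch, which runs from the last exon of the first kind to the first exon region of the second. It is not empty, since it holds exons of crossing isoforms at 1387216 to 1387398, 1388124 to 1388320 and 1388697 to 1388792. One crossing isoform, of 12 exons, passes over it within a single intron. A first kind of 4 isoforms began at the 5′ end of the gene and stopped before this stretch, with 7 to 8 exons, in a last exon of 12 bases from 1386294 to 1386305. A second kind of 6 isoforms began after it, in a first exon region of 10 bases from 1388999 to 1389008. This region lies 70117 bases from the start of the gene, and the first exons held 8 to 10 bases of it. These isoforms held 8 to 17 exons. The remaining 9 isoforms crossed the stretch, with 12 to 25 exons and a median of 23. Relative weights differed between the kinds. Of the 4 early-ending isoforms 2 had a weight of 1, with a median of 0.752. Of the 6 late-starting isoforms 4 had a weight of 1, which was also their median. Of the 9 crossing isoforms 1 had a weight of 1, and their median was 0.504.

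**Figure D2:**
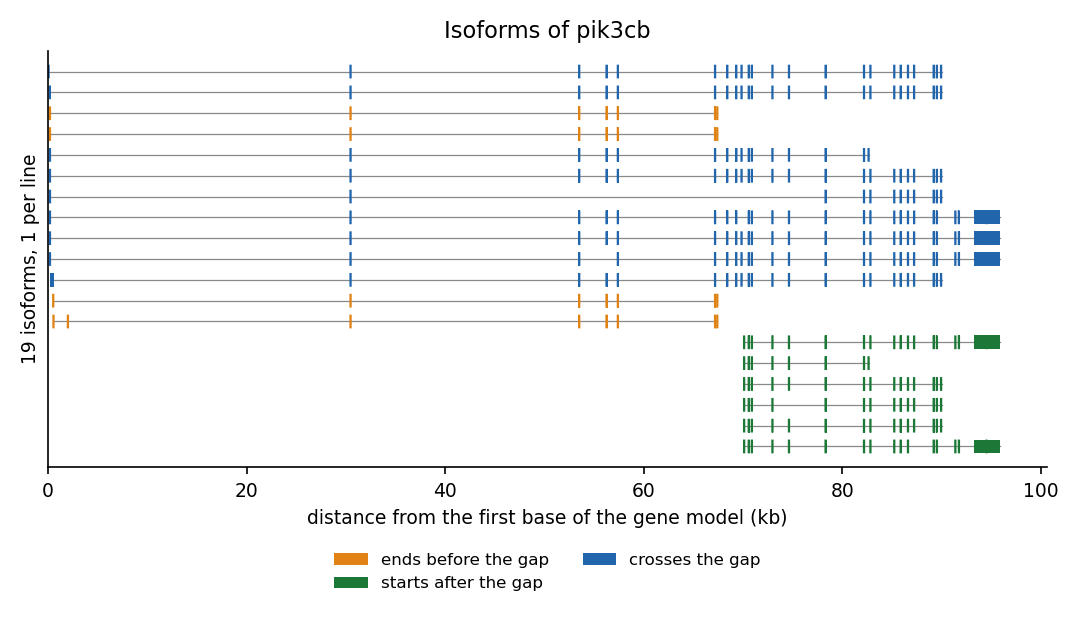
Map of the 19 isoforms of pik3cb, 1 row per transcript, with exons as boxes of a fixed minimum width, introns as lines and distance from the start of the gene in kilobases on the horizontal axis. The 4 orange isoforms end before the stretch of 2693 bases, the 6 green isoforms begin after it and the 9 blue isoforms cross it.

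Most other ends of pik3cb were longer. A first exon region of 446 bases, from 1318993 to 1319438, began 12 isoforms, which used 5 different 5′ ends and 2 donor sites 309 bases apart. A first exon of 91 bases from 1318882 to 1318972 began 1 isoform. Of the last exons, that of 2626 bases from 1412116 to 1414741 ended 5 isoforms, and that of 112 bases from 1408790 to 1408901 ended 8. A last exon of 8 bases from 1401539 to 1401546 ended 2.

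In pik3cb, 18 skipped exons were counted by exact ends, which fell into 13 regions, and 6.49% of all genes had more. Of the 18, 13 were each skipped by 1 transcript. An isoform of 12 exons had an intron of 47710 bases, from 1349408 to 1397117, that took up 49.8% of the span of the gene. That intron passed over most of the skipped exons at once. The 4 forms of the exon at 1406086 to 1406173 lay outside it. Inclusion and skipping each rested on at least 2 transcripts for 3 exons. These were 200 bases from 1375044 to 1375243, included in 10 and skipped in 2 transcripts, 96 bases from 1388697 to 1388792, included in 7 and skipped in 2, and 54 bases from 1393497 to 1393550, included in 13 and skipped in 2. The exon from 1320781 to 1320977, of 197 bases, went the other way, with 1 transcript that held it and 12 that skipped it. Of 44 junctions, 20 lay outside the annotated chain and 14 occurred in 1 transcript.

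The gene pik3c2a encodes the alpha enzyme of class II, known in mammals for clathrin-mediated endocytosis. It lay on the plus strand of scaffold GL173441 from 256911 to 317836, a span of 60926 bases. Of all genes, 1.51% had as many isoforms or more, and 1.59% had more than its 35 exons. Its isoforms held 3 to 35 exons with a median of 33, and 668 to 7946 bases with a median of 7529. They used 90 different introns, of which 29 occurred in 1 transcript only. None had the annotated junction chain, which was found in 3 of the 6 members, pik3ca, pik3cb and pik3ip1, and in 33.5% of all genes.

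A single first exon region of pik3c2a, 235 bases from 267110 to 267344, began 43 of the 59 isoforms, or 72.9%. These isoforms used 14 different 5′ ends and 3 donor sites in it. The gene had 8 separate first exons in all, meaning first exons that do not overlap each other, and at least 2 were found in 4 of the 6 members and in 67.8% of all genes. With first exons begun by at least 2 transcripts only, 3 of the 6 members had at least 2, since pik3r5 then had 1. The share of 67.8% does not apply to this setting, at which the median over all genes fell from 2 to 1. Upstream of the common one lay a first exon of 12 bases at the start of the gene, used by 1 isoform, and one of 306 bases from 258248 to 258553, used by 2. Just downstream, a first exon region of 56 bases from 269172 to 269227 was used by 2, with first exons of 56 and 47 bases.

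The other 4 first exons of pik3c2a lay far inside the gene. A first exon region of 36 bases from 288927 to 288962, 32016 bases from the start of the gene, began 3 isoforms and overlapped an internal exon of other isoforms. Their first exons held 1 to 36 bases of it. A first exon region of 78 bases from 289842 to 289919 overlapped no internal exon and began 5 isoforms, each at its own 5′ end. Their first exons held 1 to 78 bases of it. Very short regions of 2 bases, at 301472 to 301473, and of 9 bases, at 314926 to 314934, began 2 isoforms and 1 isoform. In the region of 2 bases, the first exons held 2 bases and 1 base.

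The 3′ ends of pik3c2a were as unequal. A last exon region of 2614 bases from 315223 to 317836 ended 46 of the 59 isoforms, or 78.0%. The whole region was 1 exon in 42 of them, and in the other 4 the last exon held its final 1596 bases. The other 13 isoforms ended in 6 earlier last exons. Those were 8 bases long at 290349 to 290356, 291092 to 291099 and 291434 to 291441, and 77, 72 and 24 bases long at 293574 to 293650, 297206 to 297277 and 311297 to 311320. Separate last exons numbering at least 2 were found in 3 of the 6 members, pik3ca, pik3cb and pik3c2a, and in 54.6% of all genes. In pik3ca this rests on the last exon of 8 bases, which ended 1 isoform. With last exons ended by at least 2 transcripts only, pik3ca had 1, pik3c2a 6 and pik3cb 4. The share of 54.6% does not apply to this setting, at which the median over all genes fell from 2 to 1. The common first exon and the common last exon occurred together in 32 isoforms, all of 32 to 35 exons. None of those 32 had a relative weight of 1. All 5 pik3c2a isoforms of weight 1 ended in an earlier last exon. Of these, 3 began in the common first exon and held 9 to 11 exons. The other 2 began in the first exon region of 78 bases. The isoform of 7 exons had a first exon of 1 base, and that of 25 exons had one of 78 bases.

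**Figure D3:**
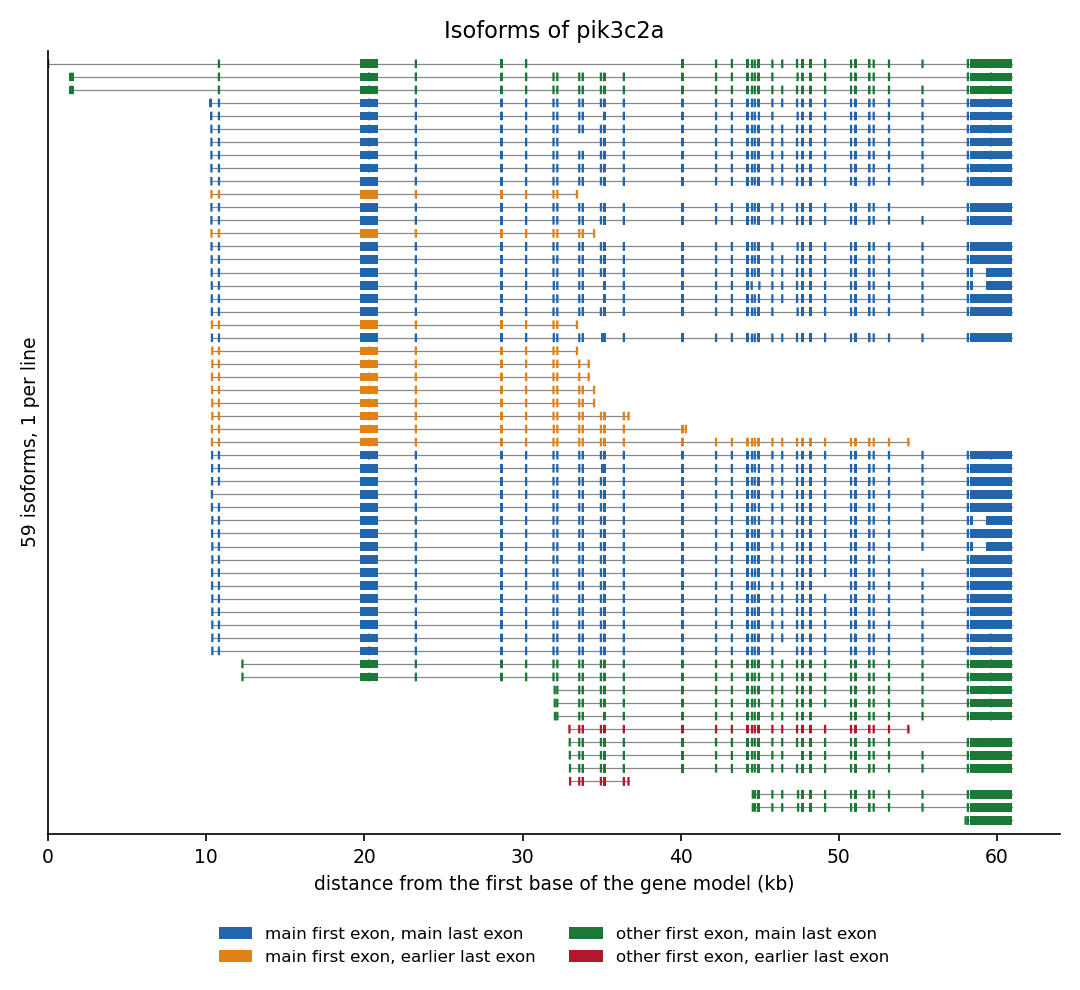
Map of the 59 isoforms of pik3c2a, 1 row per transcript, with exons as boxes of a fixed minimum width, introns as lines and distance from the start of the gene in kilobases on the horizontal axis. Blue marks the 32 isoforms with the common first and last exon, orange those with the common first and an earlier last exon, green those with another first and the common last exon, and red those with neither.

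Most of the 36 skipped exons of pik3c2a, counted by exact ends, overlapped other forms, and when merged they fell into 12 regions. A region can hold more than 1 exon. The region from 291845 to 292182 held 9 forms. Among them were short forms of 40 to 45 bases, an exon of 211 bases from 291972 to 292182 and a form of 333 bases over both. Skipping by 1 transcript accounted for 20 of the 36, and for 9 both inclusion and skipping were seen in at least 2 transcripts. The exon of 147 bases from 290646 to 290792 was included in 49 transcripts and skipped in 4. That of 93 bases from 303289 to 303381 was included in 38 and skipped in 5, with 4 more transcripts holding a form of it with another end. That of 110 bases from 312151 to 312260 was included in 41 and skipped in 4, and that of 40 bases from 291850 to 291889 was included in 33 and skipped in 5. A length divisible by 3 keeps the reading frame when a coding exon is skipped, and 12 of the 36 exon forms had one. The exons of 147 and 93 bases were among them, and those of 110 and 40 bases were not. Some of the 12 were forms held by 1 transcript, such as those of 69 and 60 bases.

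The splice sites of pik3c2a also shifted over short distances. Alternative acceptors are neighbouring 3′ splice sites joined to the same donor, and pik3c2a had 24, with a median distance of 2.5 bases and 17 at most 5 bases apart. Only 3 of the 24 distances were divisible by 3. Pairs 4 bases apart occurred at 267674 and 267678, at 280118 and 280122 and at 287080 and 287084. Others were only 1 base apart, as at 303286 and 303287, at 303287 and 303288 and at 303288 and 303289. Whether such close pairs are separate splice sites was not tested. Of all genes, 0.540% had more alternative acceptors, and at least 1 was found in 6 of the 6 members and in 55.9% of all genes. The only pair of pik3ca was 1 base apart, and the only pair of pik3ip1 was 2 bases apart. Its alternative donors numbered 13, of which 8 were at most 5 bases apart, and at least 1 was found in 4 of the 6 members and in 48.8% of all genes.

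Retained introns, whole introns inside an exon of another transcript, were found in pik3c2a only among the 6 members and in 28% of all genes. One of 866 bases, from 315375 to 316240, lay in the last exon region, where 42 transcripts kept it and 4 spliced it out. The other 3 were forms of 78 to 82 bases that ended at 291971 and were kept by 2 transcripts. Among the 5 isoforms of relative weight 1 alone, pik3c2a had 0 skipped exons, 2 alternative acceptors, 0 alternative donors and 0 retained introns. The longest internal exon of pik3c2a, of 1139 bases from 276640 to 277778, was in all 48 transcripts that began before it, and none skipped it.

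The adaptor subunits came next to each other. The genes pik3r5 and pik3r6 encode regulatory subunits of class IB, which in mammals hold the gamma catalytic subunit and pass on signals from G protein beta-gamma subunits. Both lay on the minus strand of scaffold GL172891, pik3r6 from 988447 to 1015233 and pik3r5 from 1025847 to 1057688, with 10613 bases between them. The RefSeq table also lists them as neighbours. Their isoforms began in several separate first exons, though some shared the same first exon and differed further inside the gene. They shared 1 last exon per gene, of 1219 bases in all 6 isoforms of pik3r5 and of up to 442 bases in all 12 of pik3r6.

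In pik3r5, a first exon region of 236 bases from 1057453 to 1057688 began 4 isoforms, whose first exons held 215 to 236 bases of it. A first exon of 46 bases from 1057312 to 1057357 began 1 isoform. A first exon of 8 bases from 1037848 to 1037855, 19833 bases into the gene, began 1 isoform of 17 exons. The isoforms held 17 to 20 exons and 3509 to 4036 bases, and their relative weights ran from 0.286 to 0.8. An isoform of 17 exons that began in the first exon region of 236 bases skipped 3 exons in a row. These were of 70, 139 and 69 bases between 1036646 and 1037236, and the other 5 isoforms included them. The intron from 1041050 to 1056643, of 15594 bases, took up 49.0% of the span and was used by 5 isoforms. An internal exon of 724 bases from 1032902 to 1033625 was in all 6.

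In pik3r6, a first exon region of 151 bases from 1015083 to 1015233 began 5 isoforms, whose first exons held 21 to 151 bases of it. Another region, of 129 bases from 1013466 to 1013594, overlaps an internal exon of other isoforms. It began 6 isoforms, with first exons of 106 or 129 bases. A first exon of 151 bases from 1007787 to 1007937, 7296 bases into the gene, began 1 isoform. None of the 3 first exon regions of pik3r6 was shorter than 129 bases, while separate first or last exons of at most 12 bases occurred in 4 of the 6 members, pik3ca, pik3cb, pik3c2a and pik3r5, and in 49.1% of all genes. The isoforms of pik3r6 were alike in size, at 19 to 21 exons and 2527 to 2822 bases. It had 6 alternative donors, and 3.02% of all genes had more, with distances of 4 to 54 bases. Its 4 skipped exons, counted by exact ends, of 69, 113, 148 and 159 bases, fell into 3 regions and were each skipped by 1 transcript. Those of 148 and 159 bases were forms of the same exon.

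**Figure D4:**
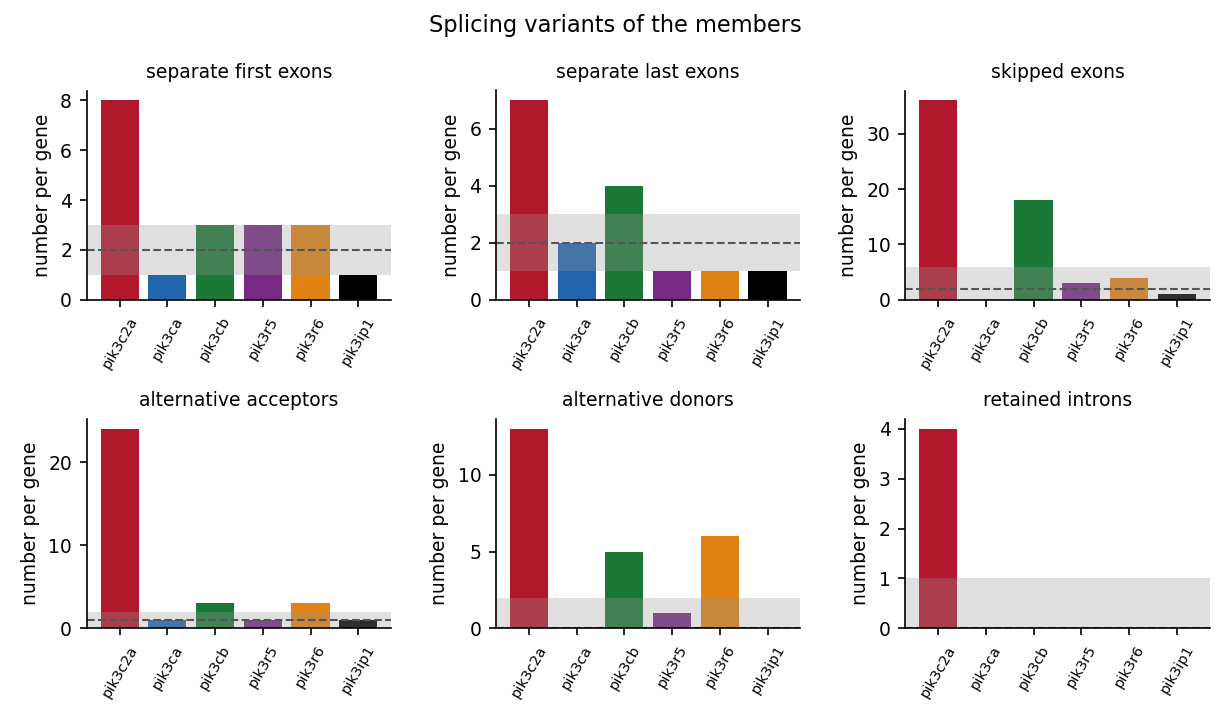
Number of separate first exons, separate last exons, skipped exons, alternative acceptors, alternative donors and retained introns per gene (vertical axes, number per gene), with a bar for each of the 6 phosphoinositide 3-kinase genes. A dashed line lies at the median of all 7410 spliced annotated genes and a grey band runs from the lower to the upper quartile. The bars of pik3c2a are the longest in each panel, at 8, 7, 36, 24, 13 and 4 events.

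The gene pik3ip1 encodes a membrane protein that in mammals binds and inhibits the class I catalytic subunit. It was the smallest of the 6, on the plus strand of scaffold GL172648 from 5509243 to 5515230, with 5988 bases and 4 exons, and 91.8% of all genes spanned more. Its 3 isoforms shared a first exon region from 5509243 to 5509748 and a last exon of up to 2491 bases, from 5512740 to 5515230. One isoform of 4 exons and 3098 bases had the annotated junction chain, with a relative weight of 0.25. Another of 3 exons and 3019 bases skipped the exon of 79 bases from 5512508 to 5512586. The third, of 4 exons and 3254 bases, used an acceptor 2 bases further, at 5512742 in place of 5512740, and began at 5509243 where the other two began at 5509401. Both isoforms outside the annotation had a relative weight of 0.5. Neither 79 nor 2 bases is divisible by 3.

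Transcripts of the opposite strand crossed most members. The libraries kept the strand of the RNA, per the labels' protocols. A spliced transcript of the opposite strand shared exonic bases with 5 of the 6 members and with 42.6% of all genes. In pik3c2a this rests on 1 transcript whose relative weight rounds to 0, and without it the count is 4 of the 6. The share of 42.6% includes transcripts of any relative weight, so it does not match this lower count. The member without any such transcript was pik3cb, whose nearest annotated neighbour, vamp1, lay on the same strand 8628 bases beyond its end. The pik3ca gene lay head to head with zmat3, a zinc finger gene, of which 4 transcripts shared 188 to 397 exonic bases with the first exon of pik3ca. The pik3ip1 gene lay tail to tail with limk2, a LIM domain kinase gene, and 20 limk2 transcripts shared 1625 to 2459 exonic bases with its last exon. The pik3c2a gene lay head to head with nucb2, a calcium-binding protein gene. The spans of 5 nucb2 transcripts overlapped that of pik3c2a by up to 4180 bases, with 0 exonic bases in common. That overlap rests on the 3 pik3c2a isoforms that begin upstream of the common first exon, 1 of them in the first exon of 12 bases, with relative weights of 0.143 to 0.333. In the RefSeq table, nucb2, zmat3, vamp1 and limk2 were neighbours of the same members.

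A separate antisense locus crossed both adaptor genes. It lay on the plus strand of scaffold GL172891 from 986932 to 1062760 and held 5 spliced transcripts with 12 distinct exons. The longest, of 6 exons and 1645 bases, ran over the whole of pik3r6 and pik3r5, from 1515 bases beyond the end of pik3r6 to 5072 bases upstream of the start of pik3r5. It shared 152 exonic bases with pik3r6 and 123 with pik3r5, and its longest intron was 30787 bases. A second, of 5 exons and 666 bases from 1001313 to 1062760, covered the whole of pik3r5 and the 5′ part of pik3r6. The other 3 transcripts, of 3 to 4 exons and 508 to 1377 bases, lay over pik3r6 and shared 152 to 387 exonic bases with it. Outside this locus, a sox18 transcript of 5 exons on the plus strand, from 10922 to 1605018, also covered both genes. It shared 0 exonic bases with either, and its deposited coverage was 0.

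**Figure D5:**
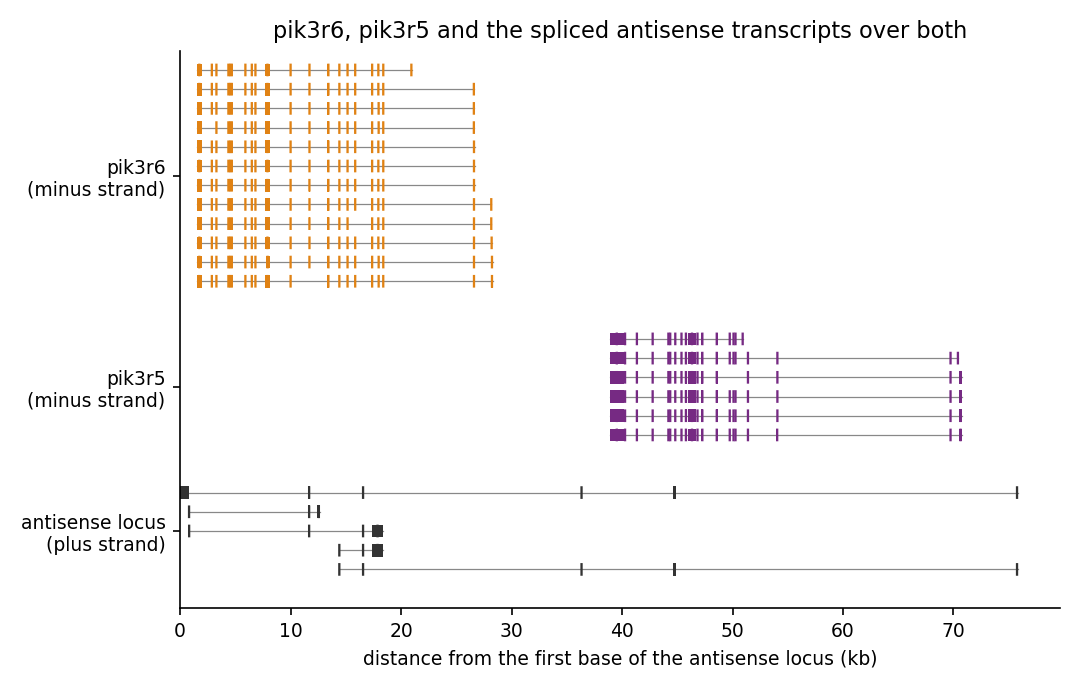
Map of the isoforms of pik3r6 (orange) and pik3r5 (purple), both on the minus strand, and of the 5 antisense transcripts on the plus strand (dark), 1 row per transcript, with exons as boxes of a fixed minimum width and distance from the first base of the antisense locus in kilobases on the horizontal axis. The antisense transcript of 6 exons covers both genes, with few of its exons over exons of either.

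All 5 antisense transcripts had a relative weight of 1. Among the 23068 spliced loci with a strand, this was the 1 locus with an assembled transcript that covered at least 2 whole annotated genes of the opposite strand and shared exonic bases with them. At 65 genes an assembled transcript of the opposite strand that shared exonic bases covered the whole gene. The deposited coverage was 1.78 for each antisense transcript, and the ratio of coverage to relative weight was the same for them as for pik3r5 and pik3r6, so these values cannot say which strand had more RNA. A single antisense transcript was listed under pik3c2a, with 2 exons from 314925 to 316751. It is the transcript whose relative weight rounds to 0, and it shared 1483 exonic bases with the 3′ end of the gene.

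Genes of the same pathway were counted in 5 lists that hold 106 names besides the members. Of these, 43 had an assembled spliced model, and the others were not analysed here. Their median was 5 isoforms, and 39 of the 43 had at least 2 isoforms, 27 at least 2 separate first exons and 31 at least 1 skipped exon. The shares over all genes for these counts are 89%, 67.8% and 70%. As many isoforms as in pik3c2a were found in 1 of the 43, the growth factor receptor gene fgfr2, with 59.

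Among other subunits of the family, 3 of 10 names had a model. The class IB catalytic gene pik3cg, partner of the pik3r5 and pik3r6 products in mammals, had 2 isoforms and 13 exons over 27515 bases. The class III adaptor gene pik3r4 had 2 isoforms and 20 exons, and the class I adaptor gene pik3r3 had 1 isoform. All 3 had fewer isoforms than any of the 6 members. The members were chosen with isoform numbers known, and these 3 were not among them, so this difference is a description only.

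Of the phosphoinositide phosphatases, 9 of 25 names had a model and the median was 4 isoforms. The tumour suppressor gene pten and tpte2 had 2, and the myotubularin gene mtmr1 had 28. The phosphoinositide 4- and 5-kinases, some of which make lipids that class I enzymes use, had a median of 6 over 8 of 11 names. Their isoform numbers ran from 4 in pi4k2b, pip5k1c and pip4k2c to 15 in pip5k1a. Receptors and adaptors upstream had a median of 13 over 11 of 26 names, from 1 in the receptor gene kit to 59 in fgfr2. Kinases and effectors downstream had a median of 8 over 12 of 34 names, from 1 in btk and phlpp2 to 41 in tsc2, which encodes a brake on the growth regulator mTOR.

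The annotated genes most like each member in isoform number, exon number, span and longest transcript were found by the distance over these 4 measures on the log2 scale, each divided by its SD over all spliced annotated genes. For pik3c2a the nearest were notch1, col9a2 and ehmt1, at distances of 0.335, 0.408 and 0.429. For pik3ca they were tmem87b, hps5 and mtmr9, at 0.371 to 0.405, and for pik3cb atp2a3, slmap and dlg1, at 0.209 to 0.270. For pik3r5 they were clns1a, atp8b1 and ap1g2, at 0.186 to 0.211, for pik3r6 rrm1, eml1 and rasal1, at 0.175 to 0.244, and for pik3ip1 id4, LOC734009 and sys1, at 0.114 to 0.180. The nearest genes lay farther from pik3ca and pik3c2a than from the other 4. In notch1 47 isoforms came with 36 exons, and in hps5 4 isoforms came with 21 exons.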

How the data were processed

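The 40 libraries were made from polyadenylated RNA with the strand kept, per the labels' protocols. Bowtie, TopHat and Cufflinks are the tools named in the submitters' processing notes. For none of them is a version given in the sources used here, and neither is the genome build or the annotation. The authors deposited 1 table of 167756 transcripts and 1 table of 159469 gene models, both for the whole series with no column per library. The deposited values headed FPKM are used as a score, the relative weight: the highest is 1, and 58.9% equal 1. The deposited coverage is a signal from 0 to 10.2 that is, within a locus, a fixed multiple of this score, and it was not used as read depth. Lengths, positions and exon numbers were used as deposited by the authors, with starts counted from 1. Columns of other samples numbered 0.

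The members and the pathway lists were chosen with earlier results of these data known. Every member is named. From the lists, the genes with the most and the fewest isoforms are named, and for each member the 3 nearest genes. Transcripts with codes for the annotated chain, a new chain or another exon overlap on the own strand counted. First or last exons were merged where they overlapped. A skipped exon lay whole inside an intron of another transcript. Event calling was tested on simulated data with known answers. Python 3.11.15, pandas 2.3.3 and numpy 2.4.6 were used. No test was run, since there is 1 value per gene. The RefSeq table of UCB_Xtro_10.0 served for names and neighbours only. Alternatives changed the transcripts, exons or support that count.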

Additional observations from a re-analysis of the deposited data

How the results depend on the processing

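Values were recomputed under 24 settings for the 6 genes together, of which 17 stayed within 1.5 times the reported value. Under 106 settings for single genes, 78 did. The 24 include the total of antisense transcripts, which is no median and was 5 at relative weight 1 in place of 6. At relative weight 1, all medians but that of isoforms cover only pik3c2a and pik3cb, so they do not match medians over 6 genes. Those of exon number, first exons, alternative acceptors and retained introns are among the 17 that stayed. Settings that added single-exon transcripts, or added or left out annotated models, could not change any member, since no member had either. Settings limited to the codes for the annotated or a new chain, or to 1 transcript per junction chain, could not either. The values that stayed include all of these. When only transcripts of relative weight 1 counted, the median isoform number fell from 9 to 0, against 1 over all genes, with 5 isoforms left in pik3c2a, 7 in pik3cb and 0 in the other 4. In the 2 genes left, the median gene span was then 67076.5 bases, skipped exons numbered 1, separate last exons 3.5 and alternative donors 0, as medians. In pik3c2a, first exons then fell from 8 to 2, last exons from 7 to 4, skipped exons from 36 to 0, alternative acceptors from 24 to 2, alternative donors from 13 to 0 and retained introns from 4 to 0. In pik3cb, skipped exons fell from 18 to 2, alternative acceptors from 3 to 1 and alternative donors from 5 to 0. First exons begun by at least 2 transcripts had a median of 1.5 in place of 3, with 1 in pik3r5 in place of 3. Skipped exons with inclusion and skipping each in at least 2 transcripts had a median of 0 in place of 3.5, with 9 in pik3c2a, 3 in pik3cb and 0 in pik3r5, pik3r6 and pik3ip1. Merging overlapping skipped exons left 12 in pik3c2a. Without terminal exons of at most 12 bases, pik3c2a had 5 first and 4 last exons, pik3cb 2 last exons and pik3ca 1. The settings on exon length, on last exons, and on splice sites, retained introns and antisense transcripts at weight 1 were chosen after seeing the data. Low depth limits how many isoforms can be assembled, and depth is unknown here. No paired analysis was possible because no value belongs to a single library and no test was run.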
